A study of Mus musculus with 5 samples.

Results

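Cycling endothelial cells are the cells that line blood vessels and were caught while dividing. They were taken here from single-cell RNA counts of whole dissociated mouse lungs at embryonic day E18.5. A barcode was a member when it held at least 500 genes with no more than 15% of its UMIs from mitochondria, at least 1 UMI each of Mki67 and Top2a, and UMIs of at least 2 of Cdh5, Pecam1, Cldn5 and Tie1. It also had to hold 0 UMIs of Ptprc, Epcam and Pdgfra, which mark immune, epithelial and mesenchymal cells. A UMI is a unique molecular identifier, a tag that marks 1 captured RNA molecule. The members numbered 278 of 1772 endothelial cells, which met the same rule without the Mki67 and Top2a condition. The 2 genotypes compared leave out wild type: every embryo carried at least 1 mutant Zswim8 allele. The Het group, Zswim8+/-, held 2 libraries (Het1 and Het2), and the KO group, Zswim8-/-, held 3 (KO1, KO2 and KO3). Each library came from the lungs of a separate embryo, so the p-values below measure the spread between embryos. The allele's construction and the part of the gene it removes are not given in the sources used here. Values per library below always run in the order Het1, Het2, KO1, KO2, KO3. The members numbered 62 and 44 cells in Het and 52, 59 and 61 cells in KO. Endothelial cells numbered 507, 328, 322, 312 and 303.

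Mki67 encodes the protein Ki-67, which coats mitotic chromosomes, and Top2a encodes the topoisomerase that untangles sister DNA strands. Both genes are transcribed mainly from S phase to mitosis, so cells chosen by them are weighted towards G2 and M phase. In the lung before birth the capillary bed expands by division of endothelial cells. The bed then holds general capillary cells, which can divide and repair it, and aerocytes, which are large, thin cells specialised for gas exchange. Zswim8 encodes the substrate receptor of a cullin ubiquitin ligase through which certain target RNAs bring about the degradation of the microRNAs they pair with. Members of the miR-15/16 family, which restrain the cell cycle, are known to be subject to this decay in mouse embryos. MicroRNAs were not measured here.

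The 5 libraries held from 56608582 (KO1) to 93708304 (Het1) UMIs in all, and from 3129 to 4820 barcodes per library met the limits on genes and mitochondrial UMIs. Pairs of libraries shared 0 to 7 of these barcodes. Het1, Het2 and KO3 came from male embryos and KO1 and KO2 from females, by Xist and Y-linked UMIs, so sex and genotype are partly confounded. No batch or date is given by the labels. Zswim8 itself was measured in cycling endothelial cells at 23.1 and 45.7 CPM in Het and at 44.4, 49.6 and 60.5 CPM in KO. CPM is the rate of a gene's UMIs among all UMIs of the summed cells, on one scale for all libraries. The log2 difference of KO over Het was 0.60 ± 0.28 (SE), with an edgeR adjusted p of 0.367. Counts taken at the 3′ end of a transcript need not report the deletion, so this value does not check the labels.

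The endothelial identity of the members was checked on genes outside the selection rule. Kdr, the main receptor of vascular endothelial growth factor, had a UMI in 90.9% to 98.4% of the cycling cells of each library. Egfl7, a secreted endothelial factor, was found in 96.2% to 100%, Emcn, a sialomucin of capillaries and veins, in 90.2% to 98.1%, and the transcription factor gene Erg in 69.2% to 75.8%. Vwf, which is abundant in large vessels, was found in 6.82% to 24.6%. The label of endothelial cells therefore held for Kdr, Egfl7, Emcn and Erg, which did not choose them. A barcode that held an endothelial cell and another cell could pass this check too. At least 3 markers of another lineage were found in 42.4% to 67.3% of the cycling cells of each library. The range was 29.2% to 57.0% in the rest of the endothelial cells. The cycling cells were deeper than the rest of the endothelium. Their median was 13065 and 15231.5 UMIs per cell in Het and 14547.5, 20790 and 16800 UMIs in KO. The other endothelial cells, called non-cycling below, had medians of 6589 and 7666.5 UMIs in Het and 7504.5, 9123 and 9684.5 UMIs in KO.

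The threshold of 1 UMI was inspected on both sides as a description. Cells with exactly 1 UMI of both genes numbered 4, 2, 1, 3 and 7 in Het1, Het2, KO1, KO2 and KO3. Just outside the rule, 41, 23, 21, 20 and 17 cells had Mki67 without Top2a, and 44, 27, 39, 31 and 26 had Top2a without Mki67. Summed UMIs of 52 genes of G2 and M phase were 66.6 to 119 per 10000 UMIs in cells with both genes. They were 17.3 to 33.7 in cells with Mki67 only, 10.3 to 16.4 in cells with Top2a only, and 9.60 to 10.4 in cells with neither. As a measure of free RNA, red-cell barcodes, which should hold neither transcript, had both in 0.0477% to 0.190% of barcodes at median depths of 2328 to 2621.5 UMIs. Barcodes with alveolar type 1 markers, an epithelial type that divides little once mature, were closer in depth, with medians of 11610 to 18826 UMIs. They had both transcripts in 3.43% and 3.30% of barcodes in Het and in 12.3%, 16.1% and 11.7% in KO, so this share was also higher in every KO library. How much of it is free RNA and how much is division was not tested.

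In all 5 libraries the cycling cells carried far more G2 and M phase RNA than the non-cycling cells, and less RNA of arterial genes. Because the rule chose the cells by this contrast, the values are given as a description with no test. On the scale of log2(CPM + 5), the 52 G2 and M phase genes had a median ratio of 3.05, and 52 of 52 were higher in cycling cells in every library. The largest ratios were those of Nusap1 (4.88) and Prc1 (4.65), which bundle microtubules of the mitotic spindle, and of Cenpf, a kinetochore gene. Nusap1 was measured in cycling cells at 236 and 257 CPM in Het and at 137, 181 and 153 CPM in KO, against at most 4.59 CPM in non-cycling cells. The 43 S phase genes had a median ratio of 1.41, led by Rrm2 (3.60), a subunit of ribonucleotide reductase. Rrm2 was measured at 85.6 to 157 CPM in cycling and 3.25 to 6.08 CPM in non-cycling cells. Genes of S phase were higher in every library for 39 of 43. Genes that govern entry into S phase differed less, with a median of 0.31 over 26 genes. The plot of summed G2 and M phase and S phase RNA shows both states. The 20 endothelial identity genes had a median of -0.15. Arterial genes had a median of -1.20, and 8 of 9 were lower in cycling cells in every library.

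**Figure D1:**
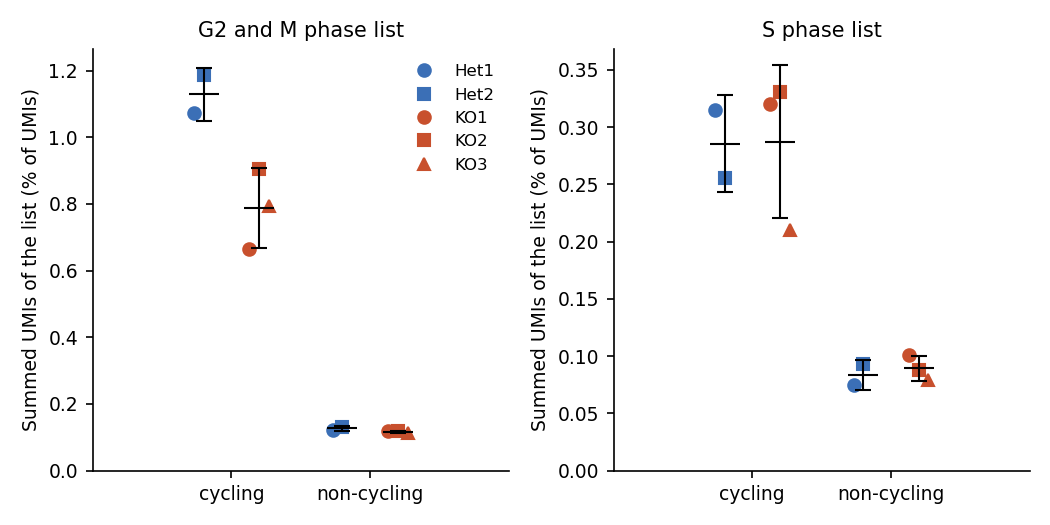
Summed UMIs of the G2 and M phase list (52 genes) and of the S phase list (43 genes), as a percent of all UMIs, in cycling and non-cycling endothelial cells; each point is 1 library and the bars are the mean and SD of a group. In cycling cells both Het libraries lie above the 3 KO libraries for G2 and M phase (1.07% and 1.19% against 0.666% to 0.905%), while the S phase values of the groups overlap.

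The first comparison asked whether the share of endothelial cells in cycle differed between the genotypes. It was 12.2% and 13.4% in Het and 16.1%, 18.9% and 20.1% in KO. Every KO library lay above both Het libraries. The means were 12.8% ± 0.84 (SD, n = 2) and 18.4% ± 2.04 (SD, n = 3), a difference of 5.58 points. A two-sided exact permutation test over libraries gave p = 0.2, where 10 splits are possible and the smallest p is 0.1. The exact binomial 95% intervals, which cover counting error only, ran from 9.51% to 15.4% in Het1 and from 15.8% to 25.1% in KO3.

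A rule of at least 1 UMI passes more easily in a deeper cell. The median over all endothelial cells was 6920 and 7946.5 UMIs in Het and 8403, 10157.5 and 10328 UMIs in KO, so every KO library was deeper than both Het libraries. When every cell was thinned to 5000 UMIs and the whole rule was applied again, the share was 12.4% and 10.8% in Het and 13.9%, 16.1% and 13.3% in KO. The difference was then 2.85 points (exact permutation p = 0.1), with no overlap. Thinning left out 130 and 59 shallower endothelial cells of Het1 and Het2, and 70, 22 and 43 of KO1, KO2 and KO3. The cells left numbered 377 and 269 in Het and 252, 290 and 260 in KO. Thinning also took away UMIs of Ptprc, Epcam and Pdgfra, so other barcodes then met the rule. The thinned set held 459 and 343 cells in Het and 281, 322 and 315 in KO, so it is not the same population. Thinning was drawn once. When only Mki67 and Top2a were read from the thinned cells, the difference was 1.19 points (exact permutation p = 0.3). The shares were then 12.7% and 11.5% in Het, and 12.7%, 13.8% and 13.5% in KO. The difference was thus smaller at equal depth in both versions, and in the second KO1 lay no higher than Het1.

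**Figure D2:**
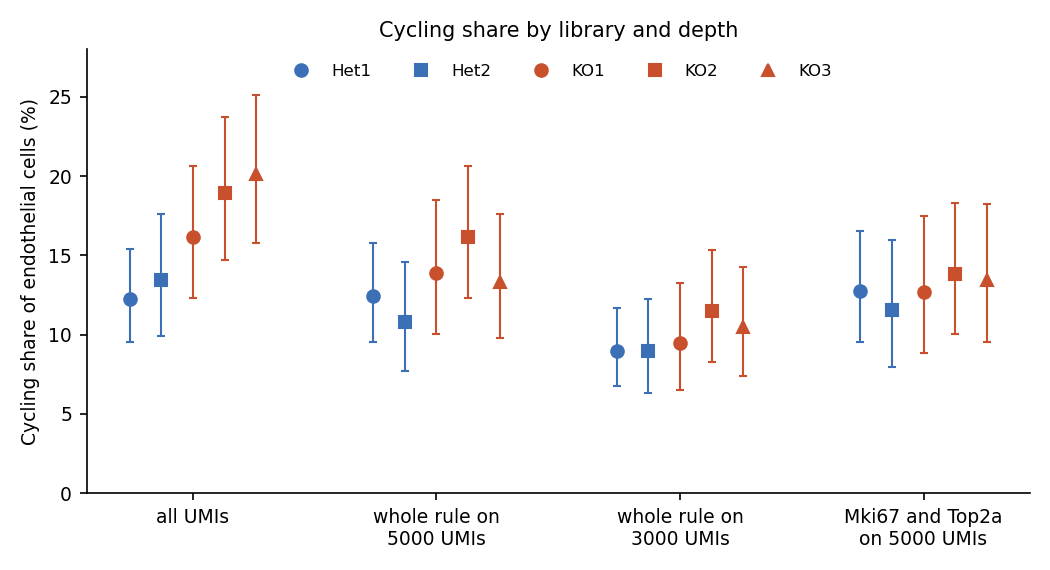
Cycling share of endothelial cells (percent) in each library under the rule as stated and under 3 thinned versions of it; each point is 1 library, with its exact binomial 95% interval. The KO libraries reach 16.1% to 20.1% under the rule as stated and 12.7% to 13.8% when Mki67 and Top2a are read at 5000 UMIs per cell.

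The share was set beside those of 3 other lineages chosen by markers, with the same Mki67 and Top2a condition. Epithelial cells in cycle made up 3.39% and 4.07% in Het and 8.82%, 13.1% and 12.4% in KO. On the logit scale, the KO minus Het difference of endothelial cells was 0.77 smaller than that of epithelial cells. It was 0.48 larger than the difference of mesenchymal cells, where the shares of the groups overlapped (4.97% to 7.66% over the 5 libraries). It was 0.26 larger than that of immune cells. The exact permutation p was 0.1 for each of the 3 differences, the smallest possible, and 0.1 after Benjamini-Hochberg adjustment. With Mki67 and Top2a read at 5000 UMIs the adjusted p was 0.15 for epithelial and mesenchymal and 0.70 for immune cells.

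Inside the cycling cells, 3 genes of G2 and M phase fell in KO and the other genes of that list had estimates below 0, while 0 genes of S phase passed the test. Of 9352 genes tested with edgeR, 108 passed a Benjamini-Hochberg adjusted p of 0.05 (1.15% of the genes tested), 32 higher in KO (0.342%) and 76 lower (0.813%). The groups did not overlap for all 108 of them, so separation of a called gene is no support beyond its call. Log2 values below are KO over Het with their SE, and CPM values are scaled by TMM. Of the 52 G2 and M phase genes, 3 fell (Anln, Ckap2 and Tubb4b), 0 rose and 49 did not pass. Their median log2 difference was -0.49, against 0.01 over all genes tested. All 52 estimates were negative, and the groups did not overlap for 40 of the 52, against 32.7% of all genes tested. Of the 43 S phase genes 0 passed, and their median was 0.02.

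Promoters of many genes of G2 and M phase carry a short element, the cell cycle genes homology region, with the letters TTTGAA, by which the DREAM and B-MYB complexes are known to time their transcription. The stretches around this motif in the promoters of the 3 genes that fell, and of both genes of the rule, are shown because these 5 genes share it. They come from RefSeq on GRCm38.p6, with the motif in capitals, and lie within 250 bases before to 50 bases after the start site. Anln lies at chr9:22389161-22389190, Ckap2 at chr8:22185903-22185932, Tubb4b at chr2:25224883-25224912, Mki67 at chr7:135716460-135716489 and Top2a at chr11:99024195-99024224. The first 4 are read on the minus strand, the strand of all 5 genes, and Top2a on the plus strand. Where a promoter held more than 1 match, 1 of them is shown.
Anln: tgaaattcaaatTTTGAAcggccgtggtag
Ckap2: gctttgttcgatTTTGAAatttctcgccgg
Tubb4b: gcaaatcaatcaTTTGAAacacccaatgga
Mki67: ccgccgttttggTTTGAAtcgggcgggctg
Top2a: tccctagtttcaTTTGAAcctttatctagc
Searched on both strands, TTTGAA was found in 32 of the 45 G2 and M phase genes with a listed promoter (71.1%) and in 6 of 31 S phase genes (19.4%). Over all 27025 genes with a listed promoter the share was 20.2%. The motif CCAAT, read by NF-Y, was found in 82.2% of the G2 and M phase genes, 67.7% of the S phase genes and 41.1% of all genes. Both motifs together were found in 60% of the G2 and M phase genes, 12.9% of the S phase genes and 7.97% of all genes. A match is a description of the letters in this window and not evidence of binding. The G2 and M phase genes that fell and those that did not pass both include genes with the motif.

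Anln encodes anillin, a scaffold of the contractile ring in cell division (GRCm38 chromosome 9, 22332012 to 22389188). Its level was 132 and 153 CPM in Het and 62.8, 76.2 and 65.8 CPM in KO. Every KO library lay below both Het libraries, and the log2 difference was -1.06 ± 0.16 (edgeR adjusted p = 0.0268). Ckap2, which stabilises spindle microtubules, was measured at 91.6 and 98.7 CPM in Het, and at 43.5, 57.1 and 48.1 CPM in KO, a log2 difference of -0.93 (edgeR adjusted p = 0.0427). Tubb4b, a beta-tubulin gene, was measured at 452 and 479 CPM in Het, and at 262, 318 and 286 CPM in KO. Its log2 difference was -0.69 (edgeR adjusted p = 0.0399). All 3 genes had KO values close to one another and apart from the Het values.

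The other genes of the list had estimates of the same sign without passing the test. Aurka, a mitotic kinase, had the lowest estimate at -1.12 (edgeR adjusted p = 0.140), with 50.3 and 90.2 CPM in Het and 19.2, 33.3 and 41.7 CPM in KO. Hmmr, a spindle protein gene, was measured at 109 and 114 CPM in Het and at 55.2, 63.9 and 75.2 CPM in KO (log2 -0.77, edgeR adjusted p = 0.0707). Cdk1, the kinase that drives entry into mitosis, was measured at 341 and 349 CPM in Het and at 232, 286 and 225 CPM in KO (log2 -0.48, edgeR adjusted p = 0.140). Its partner Ccnb1, cyclin B1, was measured at 131 and 142 CPM in Het and at 76.2, 95.9 and 91.0 CPM in KO. At the other end of the list, Cks1b, a small Cdk-binding protein gene, was measured at 238 and 239 CPM in Het and at 209, 269 and 234 CPM in KO, so that its groups overlapped. The rule genes themselves, given as a description, were measured without TMM scaling at 467 and 553 CPM (Mki67) in Het and at 312, 395 and 280 CPM in KO. Top2a was measured at 828 and 977 CPM in Het and at 573, 731 and 504 CPM in KO.

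Deeper cells can enter the rule at lower CPM of Mki67 and Top2a. The cycling cells of KO2 and KO3 were deeper at the median than those of both Het libraries. Those of KO1 (14547.5 UMIs) lay between Het1 (13065) and Het2 (15231.5), and KO1 had the lowest summed list, 0.666% of UMIs. The part of depth in the values of this list was not tested. At 5000 UMIs per cell the summed list made up 1.45% and 1.70% of UMIs in Het and 1.14%, 1.06% and 1.38% in KO, with no overlap. At 3000 UMIs it made up 1.40% and 1.72% in Het and 1.20%, 1.05% and 1.48% in KO, where KO3 lay above Het1. With at least 2 UMIs required of each gene the median of the list was -0.64 and 8 genes fell, and with 1 of the 2 genes required it was -0.30 and 0 fell. With cells carrying pericyte markers removed it was -0.30 with 0 calls, and with a sex covariate it was -0.54 with 0 calls. Without Het1 it was -0.58 and without Het2 -0.43, again with 0 calls. The ratio of summed G2 and M phase to summed S phase UMIs gave a single value per library. It was 3.40 and 4.64 in Het and 2.08, 2.74 and 3.78 in KO. KO3 lay above Het1, so the groups overlapped. The log2 difference was -0.51 (exact permutation p = 0.3).

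Among the regulators of G1 and S phase, the 2 inhibitors Cdkn1c and Cdkn1a moved in opposite directions. Cdkn1c encodes p57, an imprinted inhibitor of cyclin-dependent kinases (GRCm38 chromosome 7, 143458339 to 143461050). Levels were 123 and 97.7 CPM in Het and 276, 180.2 and 236 CPM in KO. Every KO value was above every Het value, with a log2 difference of 1.06 ± 0.20 (edgeR adjusted p = 0.0472). Cdkn1a encodes p21, the inhibitor induced by p53 (GRCm38 chromosome 17, 29090976 to 29100727). It was measured at 171 and 186 CPM in Het and at 101, 99.9 and 70.5 CPM in KO, a log2 difference of -0.98 (edgeR adjusted p = 0.0409). Of the 25 genes of this list tested, 1 rose, 1 fell and 23 did not pass, with a median of 0.03. Cdk4, a kinase of G1 phase, was measured at 135 and 139 CPM in Het and at 194, 221 and 193 CPM in KO, with groups apart (log2 0.56, edgeR adjusted p = 0.0842). Myc was measured at 16.1 and 19.1 CPM in Het and at 43.5, 25.2 and 32.9 CPM in KO (log2 0.93, edgeR adjusted p = 0.192). Ccnd1, cyclin D1, was measured at 402 and 397 CPM in Het and at 471, 328 and 311 CPM in KO, so that its groups overlapped. The call of Cdkn1c was lost with pericyte-marked cells removed (edgeR adjusted p = 0.204) and with a sex covariate (0.126).

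The miR-15/16 family acts by pairing with cyclin and kinase messages. Its members share a seed (bases 2 to 8, in capitals), except that miR-503 differs in the last seed base. They are shown because a fixed list of reported targets of the family was looked up here. No search for matches to the seed was made. The sequences are those of RefSeq on GRCm38.p6.
mmu-miR-16-5p: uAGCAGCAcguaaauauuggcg
mmu-miR-322-5p: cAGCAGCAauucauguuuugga
mmu-miR-503-5p: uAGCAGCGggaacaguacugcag
Of 16 reported targets of the family, 1 fell (Anln, described above), 0 rose and 15 did not pass, with a median of 0.02 against 0.01 over all genes. Vegfa, the vascular growth factor gene, was measured at 66.4 and 45.7 CPM in Het and at 24.3, 22.4 and 38.8 CPM in KO (log2 -0.96, edgeR adjusted p = 0.140). Cdk6 was measured at 35.2 and 29.7 CPM in Het and at 56.9, 50.3 and 50.5 CPM in KO (log2 0.69, edgeR adjusted p = 0.126). Ccne1, cyclin E1, and Wee1, a kinase that delays mitosis, had log2 differences of 0.06 and -0.02. The targets that lay apart between groups thus had estimates of both signs.

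Of 9 aerocyte genes tested in the cycling endothelial cells, 4 fell (Car4, Emp2, Tbx2 and Tbx3), 0 rose and 5 did not pass, with a median log2 difference of -1.13 against 0.01 over all genes. Emp2, a tetraspan membrane protein gene that alveolar type 1 cells also express (GRCm38 chromosome 16, 10281749 to 10313968), was measured at 162 and 137 CPM in Het and at 34.3, 39.4 and 32.9 CPM in KO. Its log2 difference was -2.07 ± 0.16 (edgeR adjusted p = 0.00202). Tbx3, a T-box transcription factor gene (GRCm38 chromosome 5, 119670669 to 119684724), was measured at 179 and 183 CPM in Het and at 46.9, 53.7 and 69.9 CPM in KO. Its log2 difference was -1.66 ± 0.18 (edgeR adjusted p = 0.00568). For both genes the gap between the groups was wider than the spread within either.

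Car4 encodes carbonic anhydrase 4, the surface enzyme used to mark aerocytes (GRCm38 chromosome 11, 84957786 to 84966044). It was counted at 62 and 75 UMIs in the cycling cells of Het1 and Het2, and at 0, 2 and 22 UMIs in KO1, KO2 and KO3. These were 62.4 and 79.6 CPM against 0, 1.36 and 12.9 CPM, and the UMIs lay in 13 and 16 Het cells and in 0, 1 and 5 KO cells. The log2 difference was -3.70 ± 0.64 (edgeR adjusted p = 0.0382), a value that depends on the prior count since KO1 was at 0. The call of Car4 was lost without Het1, without Het2, without KO2 and with DESeq2 (adjusted p = 0.473). Nor was Car4 called with cells carrying alveolar type 1 markers removed. Tbx2, the paralogue of Tbx3, was measured at 77.5 and 95.6 CPM in Het and at 35.1, 37.4 and 45.2 CPM in KO (log2 -1.13, edgeR adjusted p = 0.0338). Of the members that did not pass, Ednrb, the endothelin receptor B gene of aerocytes, was measured at 143 and 191 CPM in Het and at 166, 74.1 and 119 CPM in KO. Apln, the apelin ligand gene, was measured at 46.3 and 55.2 CPM in Het and at 69.5, 32.0 and 34.6 CPM in KO. The values of both genes overlapped between the groups.

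Prx, which encodes the scaffold protein periaxin and is outside the lists, fell with them (GRCm38 chromosome 7, 27499324 to 27520214). It was measured at 118 and 134 CPM in Het and at 31.8, 26.5 and 35.8 CPM in KO, a log2 difference of -1.99 ± 0.18 (edgeR adjusted p = 0.00266). Tbx3 passed under every alternative tried except without Het2 (edgeR adjusted p = 0.0702), and Emp2 and Prx under every alternative except the removal of cells with alveolar type 1 markers (0.0677 and 0.0670). With those cells removed 5 of 7368 genes tested passed in all. Of the 8 aerocyte genes then tested 1 fell, which was Tbx3, so neither Car4 nor Tbx2 was called. The removal left 43 and 26 cycling cells in Het and 33, 47 and 41 in KO. The sum of Het2 went from 933043 to 292394 UMIs. The part of this loss of counts in the lost calls was not tested. The share of cycling cells with at least 2 aerocyte markers was 93.5% and 93.2% in Het and 80.8%, 91.5% and 95.1% in KO, so that the groups overlapped. That share does not separate cell types, since both general capillary and aerocyte markers were found in 58 and 40 Het cells and in 41, 54 and 58 KO cells.

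**Figure D3:**
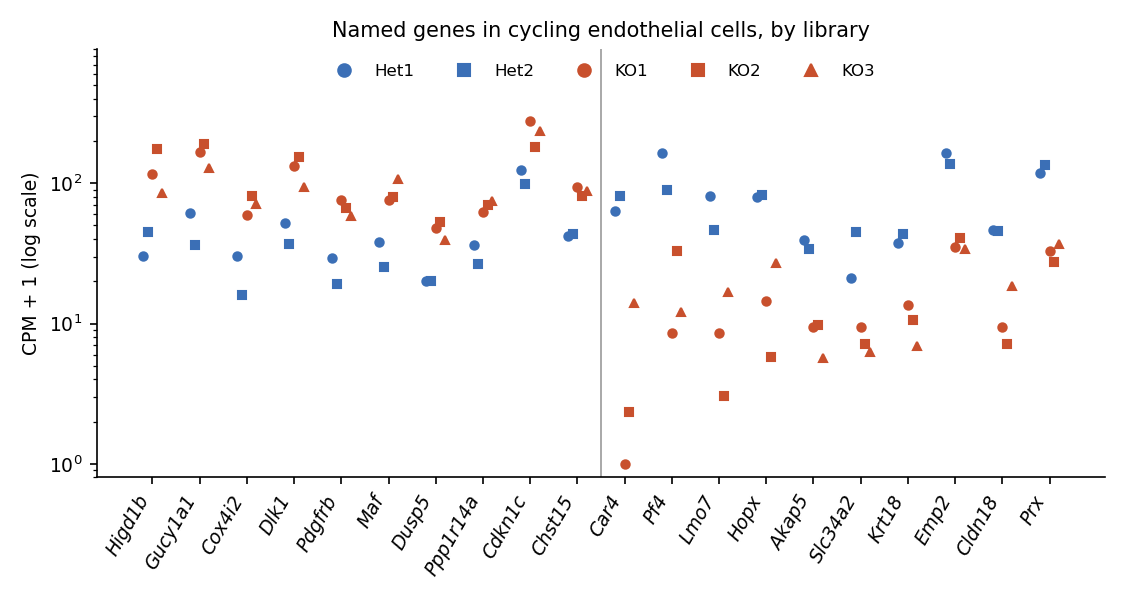
CPM + 1 on a log scale of the genes named by rule in cycling endothelial cells; each point is 1 library, with genes higher in KO left of the line and lower in KO right of it. The 2 Het and 3 KO libraries are apart for each gene shown, which the rule for naming required.

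Of 20 endothelial identity genes tested, 2 fell (Calcrl and Icam2), 0 rose and 18 did not pass, with a median of -0.24. Calcrl, the receptor gene for adrenomedullin, was measured at 660 and 483 CPM in Het and at 314, 296 and 364 CPM in KO (log2 -0.82, edgeR adjusted p = 0.0466). Icam2, an adhesion molecule gene, was measured at 458 and 502 CPM in Het and at 310, 296 and 287 CPM in KO (log2 -0.69, edgeR adjusted p = 0.0338). Kdr was measured at 577 and 630 CPM in Het and at 649, 482 and 566 CPM in KO, with overlapping groups. Klf2, a transcription factor gene induced by blood flow, was the single member of the 16 immediate early and stress genes that fell. It was measured at 625 and 565 CPM in Het and at 297, 369 and 398 CPM in KO (log2 -0.74, edgeR adjusted p = 0.0457).

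The other vessel lists gave 0 calls in the cycling cells. General capillary genes had a median of -0.12 over 10 genes. Plvap, which forms the diaphragms of capillary openings, was measured at 247 and 279 CPM in Het and at 398, 360 and 341 CPM in KO (log2 0.48, edgeR adjusted p = 0.117). Arterial genes had a median of 0.17 over 8, venous genes of 0.10 over 6 and lymphatic genes of 0.35 over 7. Nr2f2, the transcription factor gene that specifies veins, was measured at 107 and 98.7 CPM in Het and at 181, 147 and 200.2 CPM in KO (log2 0.78, edgeR adjusted p = 0.0664). The share of cycling cells with at least 2 venous markers was 48.4% and 27.3% in Het and 53.8%, 57.6% and 62.3% in KO. That difference of 20.1 points had an exact permutation p of 0.1, and 0.5 after Benjamini-Hochberg adjustment over 5 subtypes. At 5000 UMIs per cell it was 16.2 points, with overlapping groups (exact permutation p = 0.3), and at 3000 UMIs it was 1.23 points (exact permutation p = 0.8). Genes of angiogenic and growth factor signalling had a median of 0.02 over 40. Mdk, a heparin-binding growth factor gene, had the highest estimate there at 1.33 (edgeR adjusted p = 0.0729). The gene values of each list are drawn in the plot of list medians.

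Ribosomal protein genes were grouped by symbol after their values were seen. Of 78 tested, 10 rose in KO, 0 fell and 68 did not pass, and the median was 0.32. All 78 estimates were above 0. Rps2 was measured at 2319 and 2288 CPM in Het and at 3383, 3429 and 3109 CPM in KO, a log2 difference of 0.52 (edgeR adjusted p = 0.0279). Rpl22l1, which encodes a paralogue of a large-subunit protein, was measured at 652 and 721 CPM in Het and at 1002, 1008 and 1086 CPM in KO (log2 0.59, edgeR adjusted p = 0.0382). Both Het libraries lay below all KO libraries for each of these genes. Many of these genes have processed pseudogenes, so their counts carry the uncertainty of reads shared between copies. With pericyte-marked cells removed, or with a sex covariate, 0 of the 78 passed at medians of 0.27 and 0.27.

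The rises were led by genes of pericytes, the contractile cells that wrap capillaries, and 4 of the 10 pericyte genes tested rose. Higd1b, a mitochondrial protein gene used as a lung pericyte marker (GRCm38 chromosome 11, 102835849 to 102838040), was measured at 29.2 and 43.5 CPM in Het and at 115, 175 and 84.6 CPM in KO (log2 1.78, edgeR adjusted p = 0.0457). Gucy1a1, a subunit of the nitric oxide receptor, was measured at 60.4 and 35.0 CPM in Het and at 165, 188 and 126 CPM in KO (log2 1.73, edgeR adjusted p = 0.0279). Cox4i2, a subunit of cytochrome oxidase, was measured at 29.2 and 14.9 CPM in Het and at 58.6, 79.6 and 70.5 CPM in KO (log2 1.65, edgeR adjusted p = 0.0359). Pdgfrb, the receptor by which pericytes are recruited, was the other member that rose (log2 1.50, edgeR adjusted p = 0.0338). The median of the list was 1.57, and it was chosen after these genes were seen to lead the rises, so the count is no independent evidence of its direction. The summed level of the 10 pericyte genes was 295 and 188 CPM in Het and 629, 695 and 602 CPM in KO, with 0 of the 10 at 0 in any library. Cells with at least 2 of these markers numbered 10 and 5 in Het, and 10, 14 and 11 in KO. With those cells removed, 1 of the 10 genes still had enough counts to be tested and 7 genes rose in the whole fit, against 32.

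The falls included genes of alveolar type 1 cells, the flat epithelial cells that lie against aerocytes, and of megakaryocytes and platelets. Of 8 alveolar type 1 genes tested, 5 fell (Lmo7, Rtkn2, Hopx, Akap5 and Cldn18), 0 rose and 3 did not pass, with a median of -2.35. Of all genes tested 0.813% fell. Both lists were added after the data were seen, so their counts and summed levels are no independent evidence of direction. Hopx, a homeodomain gene of these cells, was measured at 78.5 and 81.8 CPM in Het and at 13.4, 4.76 and 25.8 CPM in KO (log2 -2.40, edgeR adjusted p = 0.0382). Krt18, an epithelial keratin gene, was measured at 36.2 and 42.5 CPM in Het and at 12.6, 9.52 and 5.87 CPM in KO (log2 -2.11, edgeR adjusted p = 0.0287). The summed level of the 8 genes was 460 and 438 CPM in Het and 59.9, 47.2 and 138 CPM in KO. Ager, the receptor gene that marks these cells, was highest among them in both Het libraries. Cells with at least 2 of the markers numbered 19 and 18 in Het, and 19, 12 and 20 in KO. The part of alveolar type 1 RNA in the falls was not tested. Of the epithelial list, which shares Cldn18, 2 of 9 genes fell (Krt18 and Cldn18) at a median of -1.39.

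Pf4, a platelet chemokine gene, was measured at 163 and 88.1 CPM in Het and at 7.53, 32.0 and 11.2 CPM in KO (log2 -2.87, edgeR adjusted p = 0.0323). Ppbp, another platelet chemokine gene, was counted at 48 and 8 UMIs in Het and at 0, 2 and 1 UMIs in KO. The summed level of the 7 megakaryocyte and platelet genes, a list added after the data were seen, was 308 and 138 CPM in Het. It was 17.5, 50.6 and 19.9 CPM in KO. The groups overlapped in the summed levels of mesenchymal genes (459 to 1696 CPM over the 5 libraries), immune genes (36.6 to 180.1 CPM) and erythroid genes (4160 to 14711 CPM). Dcn and Lum, defining fibroblast genes, were at 0 in both Het libraries, and Lum was at 0 in KO1. Lists of mesenchymal and immune cells gave 1 and 0 calls, the call being Pdgfrb. Mixed cells, with at least 3 markers of another lineage, made up 56.5% and 50% of the cycling cells in Het and 67.3%, 42.4% and 60.7% in KO. With mixed cells removed, 58 genes passed, of which 29 were among the 108. Car4, Emp2, Tbx2 and Tbx3 fell there as well, at a list median of -1.93. The part of RNA from neighbouring cells in these values was not tested.

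Other genes among the 10 rises named by rule were Dlk1, Maf, Dusp5, Ppp1r14a and Chst15. Dlk1, an imprinted gene of a Notch-like membrane protein, was measured at 51.3 and 36.1 CPM in Het and at 132, 152 and 92.2 CPM in KO (log2 1.51, edgeR adjusted p = 0.0382). Maf, a transcription factor gene of lymphatic and sinusoidal endothelium, was measured at 37.2 and 24.4 CPM in Het and at 74.5, 78.9 and 106 CPM in KO (log2 1.49, edgeR adjusted p = 0.0359). Chst15, a sulfotransferase gene, was measured at 41.3 and 42.5 CPM in Het and at 92.9, 80.2 and 87.5 CPM in KO (log2 1.05, edgeR adjusted p = 0.0338). The KO values of Chst15 lay close together, as did its Het values. Slc34a2, a phosphate transporter gene of alveolar type 2 cells, was among the 10 falls named by rule. It was measured at 20.1 and 43.5 CPM in Het and at 8.37, 6.12 and 5.28 CPM in KO (log2 -2.28, edgeR adjusted p = 0.0399).

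These calls rested on few libraries. Of the 41 called genes that were named by rule or belong to a list, 5 passed without Het1, 3 without Het2 and 8 with a sex covariate, and 38 passed with predicted doublets removed. Without Het1 26 genes passed and without Het2 9, where the remaining Het library is assumed to vary like the KO libraries. Without KO1, KO2 and KO3 the counts were 85, 24 and 176. With a sex covariate 39 genes passed, of which 22 were among the 108, and with DESeq2 191 passed, 41.4% of them higher in KO against 29.6% with edgeR.

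The same comparison was made in the non-cycling endothelial cells of the same libraries, which are those that fail the Mki67 and Top2a condition. They include the cells with Mki67 alone, which carried more G2 and M phase RNA than cells with neither gene. Some of them may thus be in cycle. The cells of both states come from the same 5 libraries, so the sets of values are not independent and are given side by side. Of 11250 genes tested there, 677 passed (6.02%), 193 higher in KO (1.72%) and 484 lower (4.3%). Those sums held more cells than the cycling sums, so the counts of calls are not comparable. Of the aerocyte genes, 8 of 9 fell in non-cycling cells at a median of -1.91. Emp2 was measured there at 236 and 209 CPM in Het and at 30.3, 21.7 and 44.3 CPM in KO, a log2 difference of -2.79 (edgeR adjusted p = 0.000138) beside -2.07 in cycling cells. Tbx3 had -1.97 beside -1.66, Prx -2.64 beside -1.99, Tbx2 -2.27 beside -1.13 and Car4 -4.63 beside -3.70. Each of these genes thus had lower KO values in both states.

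The inhibitors Cdkn1c and Cdkn1a also passed in non-cycling cells. Cdkn1c was measured there at 144 and 193 CPM in Het and at 306, 278 and 325 CPM in KO (log2 0.85, edgeR adjusted p = 0.00708). Cdkn1a was measured at 138 and 125 CPM in Het and at 69.1, 43.6 and 57.8 CPM in KO (log2 -1.21, edgeR adjusted p = 0.00322). Of the G2 and M phase genes, 36 had enough counts in the non-cycling cells, 1 fell and the median was -0.19. Tubb4b was that gene, with a log2 difference of -0.74. Anln had -0.23 (edgeR adjusted p = 0.868) at 1.60 to 5.21 CPM, and Ckap2 had -0.31 (0.720). Ribosomal protein genes had the same median as in cycling cells, 0.32, and 28 of 78 rose. Pericyte genes had a median of 0.67 and 0 of 10 passed. Higd1b was measured at 26.5 and 91.4 CPM in Het and at 89.9, 49.9 and 78.6 CPM in KO, so that its groups overlapped there. In non-cycling cells the groups did not overlap for 37.6% of the genes tested.

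**Figure D4:**
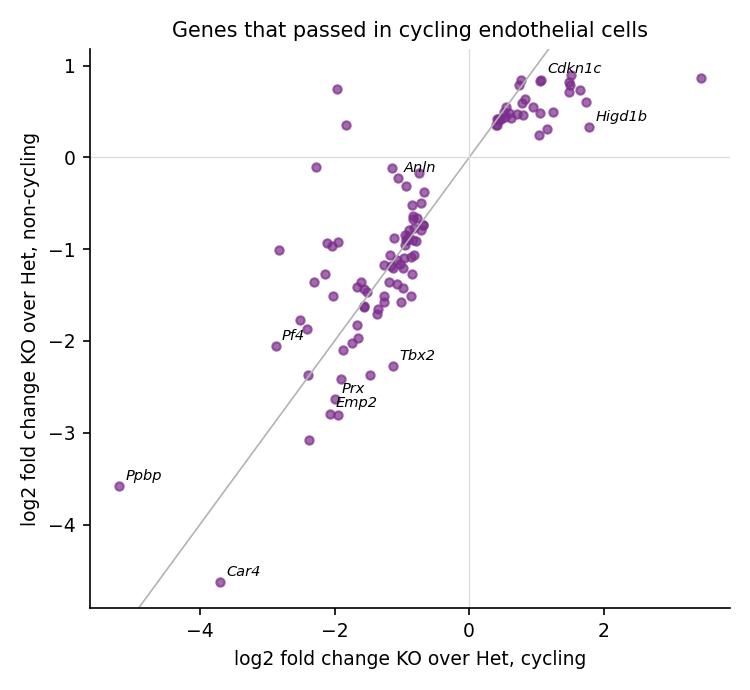
Log2 difference of KO over Het in cycling (horizontal) and non-cycling (vertical) endothelial cells for genes that passed in cycling cells and were tested in both states; each point is 1 gene, the diagonal marks equal values, and both axes rest on the same 5 libraries. Emp2, Prx and Car4 lie low on both axes, and Higd1b lies high on the horizontal axis and near 0 on the vertical one.

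Among the genes named by rule in the non-cycling cells, Stab2, a scavenger receptor gene of sinusoidal endothelium, led the rises. It was measured at 7.32 and 7.68 CPM in Het and at 33.9, 30.5 and 27.9 CPM in KO (log2 2.03, edgeR adjusted p = 0.000524). Angpt2, a ligand that loosens vessels, had a log2 difference of 1.82 there (edgeR adjusted p = 0.0134) beside 0.10 in cycling cells (0.977). Mdk had 1.78 (0.00171) beside 1.33 in cycling cells. The largest falls were those of Actc1, a cardiac actin gene (-5.00), Car4 and Ppbp (-3.58).

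Whether the genotype difference itself differed between cycling and non-cycling cells was tested with the library as a block. Of 11263 genes 1 passed (0.00888%), which was Lox, the gene of the enzyme that crosslinks collagen and elastin, and 521 had an unadjusted p under 0.05 (4.63%). In cycling cells Lox was measured at 23.7 and 43.0 CPM in Het and at 5.76, 8.04 and 10.9 CPM in KO. In non-cycling cells the values were 20.5 and 26.8 CPM in Het, and 34.3, 37.5 and 47.4 CPM in KO. KO was thus below Het in cycling cells and above it in non-cycling cells. The difference of the log2 differences was -2.72 ± 0.31 (edgeR adjusted p = 0.0249). It rested on 24 and 41 UMIs in the cycling cells of Het1 and Het2, and on 7, 12 and 19 in those of KO1, KO2 and KO3. With predicted doublets removed it was -1.21 (edgeR adjusted p = 0.992), and with mixed cells removed it turned to 3.99. The call was also lost without Het1, without Het2 and without KO2. It was lost as well with stricter barcode limits (edgeR adjusted p = 0.319), with 2 UMIs needed of Mki67 and Top2a (0.122), and with alveolar type 1-marked (0.537) or Prox1-positive cells removed (0.0615). Lox is made mainly by fibroblasts and smooth muscle, and mesenchymal genes in the cycling cells summed to 612 and 621 CPM in Het and to 459, 591 and 1696 CPM in KO.

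None of the list members passed this test of the difference, and the lists were not tested as sets. All 10 pericyte genes had estimates above 0 (median 0.98). That list was chosen because its genes led the rises in the cycling sums. The same sums enter this test, so these signs are no independent evidence. The 10 epithelial, 7 lymphatic and 6 megakaryocyte and platelet genes tested all had estimates below 0. The megakaryocyte and platelet list was also added after the data were seen. Of the G2 and M phase genes, 41 were below 0 and 11 above (median -0.35). Over all genes tested 5725 estimates were above 0 and 5538 below, and the median was 0.007. Tbx2, with -1.13 in cycling and -2.27 in non-cycling cells, had a difference of differences of 1.13 (edgeR adjusted p = 0.225). Actc1 and Myl7, genes of heart muscle, had 5.19 (0.0726) and 5.45 (0.146). Neat1, a nuclear long noncoding RNA, had -1.05 (0.138), and Mgp, the matrix Gla protein gene, had -1.84 (0.138).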

How the data were processed

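Values were used as the authors deposited them: integer UMI counts of 32285 genes in each barcode, made with Cell Ranger 4.0.0 on mm10, per the submitters' processing notes. The annotation, the handling of strand and the filter on barcodes are not given in the sources used here. Lungs were digested with collagenase and DNase and red cells were lysed before 10x 3′ capture, per the labels' protocols. Of the genes, 32158 matched GENCODE M21 (GRCm38), which gave coordinates. The members and the gene lists were chosen with earlier results of these data known. The lists of pericytes, alveolar type 1 cells and megakaryocytes, and the ribosomal proteins by symbol, were added after seeing the data.

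The library was the replicate, so UMIs were added up within each library over the cycling endothelial cells (933043 to 1704749 UMIs per sum) and over the non-cycling ones. Sums were compared with edgeR 4.0.16 in R 4.3.3 (quasi-likelihood test, TMM, filterByExpr, two-sided, Benjamini-Hochberg adjusted p under 0.05 over all genes tested); the 9 genes of the rule were not tested. The genotype by state fit had the library as a block. Shares and the phase ratio were compared by exact permutation over libraries. Intervals are exact Clopper-Pearson. Cells were not freed of doublets in the main values; removal of the highest doublet scores (0.8% per 1000 cells) was an alternative. In each genotype fit the genes named were those with the largest change in each direction that passed, had no overlap between groups and averaged 30 CPM or more in the higher group: 10 per direction in cycling cells, 3 in non-cycling cells and 5 for genotype by state (those with the smallest p if fewer than 5 passed). Sex-linked, haemoglobin, mitochondrial and rule genes were left out, and list members past the threshold were added. Members named without passing were picked with their values in view.

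The alternatives comprised DESeq2 1.42.0, library size alone, other low-count filters, stricter and looser rules for cells, doublets removed, a fit with replicate block, and leaving out each library in turn. Removal of mixed, pericyte-marked, alveolar type 1-marked and Prox1-positive cells and a sex covariate were added after seeing the data. The fits were tested on simulated data.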

Additional observations from a re-analysis of the deposited data

Results flagged for a closer look

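Lox met the rule for a closer look because the difference between genotypes was itself different in cycling and non-cycling endothelial cells, by the edgeR test of that difference (log2 -2.72, n = 2 Het and 3 KO libraries, adjusted p = 0.0249). It was the single gene of 11263 to do so, and the values per library and the alternatives that end or turn it are given with the comparison above.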

How the results depend on the processing

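The share of endothelial cells in cycle was higher in KO under every alternative, by 1.19 to 6.76 points. Leaving out 1 library gave 4.71 to 6.70 points for the share. On the logit scale it gave -0.83 to -0.70 against epithelial, 0.20 to 0.76 against mesenchymal and 0.23 to 0.29 against immune cells. It gave -0.74 to -0.29 for the log2 phase ratio. For cells with 2 subtype markers it gave -1.83 to 7.26 points (general capillary), -7.22 to -0.06 (aerocyte), -4.00 to 3.18 (arterial), 9.54 to 30.7 (venous) and 1.38 to 5.82 (lymphatic). The number of genes called ranged from 9 to 176 in cycling cells, from 114 to 945 in non-cycling cells and from 0 to 3 for genotype by state.

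The call counts in cycling cells were 191 with DESeq2, 634 with no low-count filter, 58 with mixed cells removed, 56 with pericyte-marked and 5 with alveolar type 1-marked cells removed, and 39 with the sex covariate. In non-cycling cells they were 1469 with no filter and 98 with the sex covariate. For genotype by state they were 3 with DESeq2, 98 with no filter, 26 with 1 of Mki67 and Top2a needed, 13, 5 and 2 with mixed, pericyte-marked and Prox1-positive cells removed, and 10 with a sex by state term. They were 0 by edgeR with doublets removed, stricter barcodes, 2 UMIs needed and alveolar type 1-marked cells removed (491, 452, 713 and 540 genes at an unadjusted p under 0.05), against 3 by DESeq2 under the rule as stated.

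Differences in subtype shares turned sign. General capillary gave -1.08 points with mixed cells removed. Arterial gave -0.75 with stricter barcodes, -1.12 with 3 endothelial markers, -11.3 and -2.30 with mixed and pericyte-marked cells removed, and -2.20 and -1.84 at 5000 and 3000 UMIs. Lymphatic gave -10.6 and -2.76 with mixed and pericyte-marked cells removed and -7.90 at 5000 UMIs. Of single genes, Dusp5 was at -0.24 with pericyte-marked cells removed. In non-cycling cells Cldn18 was at 0.63 with alveolar type 1-marked cells and Mmrn1 at -0.069 with Prox1-positive cells removed. For genotype by state, Lox, Col5a2, Mgp and Neat1 turned to 3.99, 0.72, 0.75 and 0.59 with mixed cells removed, and Neat1 to 0.064 with alveolar type 1-marked cells removed. Actc1 and Myl7 turned to -1.96 and -6.57 with 1 of Mki67 and Top2a needed and Mfap4 to 0.22 with 2 UMIs needed. Over single libraries left out, Myl7 ranged from -0.24 (without Het1) to 5.91 and Zswim8 from -0.19 (without Het1) to 0.90. The cause of these changes was not tested. The endothelial minus epithelial share with alveolar type 1-marked cells removed could not be computed, since KO2 then held 0 cycling epithelial cells.

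With a replicate block, 112 genes passed in cycling cells (61 of them among the 108) and 771 in non-cycling cells. Deviations from the group mean in same-numbered cycling sums had correlations of -0.04 and -0.09. With 2 Het libraries the deviations of Het1 and Het2 mirror each other. These values therefore cannot tell whether same-numbered samples share more than a number. The genotype by state fit already had the library as a block. Sums of 44 to 62 cells leave genes of few UMIs outside the test.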
